A study of Mus musculus with 3 samples.

Results

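Cells with transcripts of Folr4, the older symbol of Izumo1r, were compared with cells without them among naive CD4 T cells of the mouse. A member was any cell with a Folr4 value above 0 and a Foxp3 value of 0, and the cells set against the members had 0 for both genes. This choice gave 185 Folr4+ cells of 697 cells in all, with 66, 60 and 59 in plates 1, 2 and 3. The Folr4- cells numbered 456, with 106, 133 and 217 in plates 1, 2 and 3. Foxp3 transcripts set aside a further 56 cells, 19 of which also had Folr4. The members were chosen on measured Folr4 and Foxp3, so the values of those genes below are a description and carry no test.

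Both groups came from the same sort and the same 3 plates. The cells were taken fresh from spleen and lymph node of C57BL/6 mice aged 8 to 12 weeks, pooled from males and females, with no treatment or altered allele named in the labels. The gate kept live singlets that were TCRb+, CD4+, CD62L+ and CD5+ and were CD8-, CD25- and CD44-, and the CD5 fluorescence of each cell was recorded as it entered its well. RNA was counted by SORT-seq, a plate method that reads the 3' end of transcripts and counts unique molecular identifiers (UMIs). The plates held 172, 201 and 324 cells with a median of 3749, 5449 and 3952 UMIs per cell. CD5 in plate 2 needs care: over its 201 cells the rank correlation of Cd5 transcripts with CD5 fluorescence was 0.08, against 0.39 over 172 cells of plate 1 and 0.26 over 324 cells of plate 3. The labels do not settle whether each CD5 value of plate 2 stands with its own cell, which bears on all its CD5 values and classes below. The labels do not state whether plates came from separate mice, so p-values measure the spread between these plates, which may be technical.

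Folr4 encodes folate receptor 4, a surface protein anchored in the membrane by a lipid. Despite its name it does not bind folate well, and on eggs the same protein, called Juno, is the receptor for the sperm protein Izumo1. In mouse T cells it is known as a marker of regulatory T cells, which Foxp3 defines, and of anergic CD4 T cells, which carry it together with CD73 (Nt5e). Naive cells carry less of it. CD5, recorded here at the sort, is an inhibitory receptor, and naive T cells that receive stronger self-signals through the T cell receptor (TCR) carry more of it. On build GRCm38, Izumo1r lies on the minus strand at chr9:14885814-14903949, Foxp3 on chromosome X from 7573644 to 7595245 and Cd5 on chromosome 19 from 10717116 to 10739002, by the GENCODE annotation. Cd6, a close relative of Cd5, lies beside it on chromosome 19 from 10789341 to 10830058.

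Members were CD4 T cells by their transcripts. Cd4 was found in 95.7% of the 185 cells (exact 95% interval 91.7 to 98.1), Cd3e in 82.2% (75.9 to 87.4) and the TCR kinase Lck in 88.1% (82.6 to 92.4). The erythroid gene Alas2 was found in 0 of 185 members, which allows up to 1.97% of cells with a UMI (exact 95% bound), the B cell marker Cd79a in 4, Cd8a in 4 and Cd8b1 in 7. Klrd1, which NK cells carry, was found in 18 members and the myeloid gene Cst3 in 42. At matched depth Cst3 was in 22.6% of Folr4+ and 23.7% of Folr4- cells, and Klrd1 in 10.2% and 13.0%. Of the T cell genes at that depth, Cd4 was in 95.5% of Folr4+ and 97.2% of Folr4- cells. Cd3e was in 81.9% and 84.7%, Cd3d in 78.0% and 80.8%, and Lck in 88.1% and 96.6%. Cd3g (78.0% and 76.3%) and Cd28 (59.9% and 56.5%) went the other way. Trbc1, Trbc2, Klrb1c, Ncr1, Lyz2, Csf1r, Hba-a1 and Hbb-bs had no row in the table.

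Most members carried a single Folr4 UMI and a minority carried many. Of the 185 cells, 106 (57.3%) had 1 UMI, 29 had 2 and 50 had at least 3. The 30 cells with at least 6 UMIs held 310 of the members' 554 Folr4 UMIs, or 56.0%. Per 10000 UMIs of the cell, Folr4 ran from 0.754 to 59.1 with a median of 3.87. Members of plate 1 had 1 to 37 Folr4 UMIs with a mean of 2.88, those of plate 2 had 1 to 27 with a mean of 3.79, and those of plate 3 had 1 to 12 with a mean of 2.32. Each plate held members at both ends of this range: 8, 13 and 9 cells with at least 6 UMIs, and 39, 30 and 37 cells with 1 UMI. Whether these ends are separate kinds of cell was not tested.

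**Figure D1:**
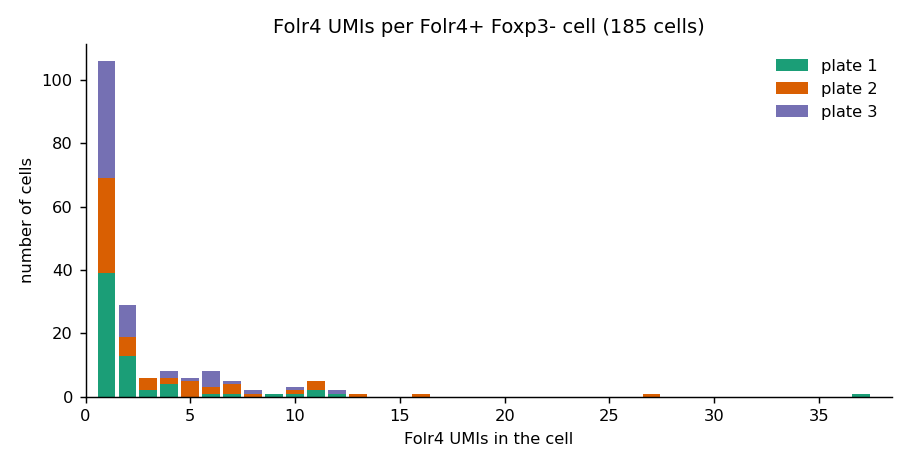
Folr4 UMIs per cell (horizontal axis) and number of cells (bars stacked by plate) over the 66, 60 and 59 Folr4+ Foxp3- cells of plates 1, 2 and 3. In each plate most members sit at 1 or 2 UMIs, and a tail of 8, 13 and 9 cells reaches 6 UMIs or more.

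The cells with the most Folr4 were spread over plates and over CD5. The highest had 37 Folr4 UMIs of 6651 in all and lay in plate 1 with a CD5 of 62250 units, in the authors' Middle class. The next 3 came from plate 2, with 27, 16 and 13 Folr4 UMIs and CD5 values of 39781, 7292 and 45904. Then came 2 High cells with 12 Folr4 UMIs each, one in plate 1 with a CD5 of 175890 and a total of only 2035 UMIs, the other in plate 3 with a CD5 of 75649 and a total of 3910 UMIs. Over the 641 cells without Foxp3, the variance of Folr4 UMIs was 8.23 times their mean of 0.865. Among the 299 genes whose mean lay within 1.2 times that of Folr4 in either direction this ratio had a median of 2.69, and Folr4 ranked first, ahead of genes at 7.54, 5.86 and 5.37. That rank rested on 1 cell: without the cell of 37 Folr4 UMIs, a check added after seeing the data, the ratio was 6.26, below a gene at 7.56 and above the next at 5.87.

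The share of cells counted as Folr4+ rose with the total UMIs of the cell. When the 641 cells without Foxp3 were ordered by total UMIs and split in 4 parts, Folr4 was found in 18.6%, 22.5%, 34.4% and 40.0% of cells from the shallowest part to the deepest. Folr4+ cells had a median of 5272 UMIs, against 3717 in Folr4- cells. Total UMIs reflect both capture and RNA content. Before matching, UMIs per spike-in UMI were also higher in Folr4+ cells in 3 of 3 plates (mean log2 ratio 0.29). The part of each in the rise was not tested. At the boundary, the 106 cells with 1 Folr4 UMI had a median of 4513 UMIs and a median CD5 of 47545 units, and the 456 cells with 0 had medians of 3717 UMIs and 43455.5 units. At such counts a 0 does not show that a cell lacked the transcript. No cell type known to lack Folr4 was sorted here, so a background share could not be measured.

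Folr4 was found in a larger share of CD5 High than of CD5 Low cells in each plate. The authors class cells as Low, Middle or High by CD5 fluorescence. In cells thinned to 2000 UMIs each, which 523 of 641 cells reached, 14.0% of Low cells (19 of 136; 8.63 to 21.0), 16.4% of Middle cells (44 of 268; 12.2 to 21.4) and 28.6% of High cells (34 of 119; 20.7 to 37.6) had a Folr4 UMI. Without thinning the shares were 24.2% (38 of 157), 26.7% (88 of 329) and 38.1% (59 of 155). The thinned share was 38.2%, 23.3% and 26.2% in High cells of plates 1, 2 and 3, against 12.8%, 10.5% and 16.9% in Low cells. High exceeded Low in all 3 plates, by 15.8 ± 8.51 percentage points (SD over 3 plates). Middle cells, at 23.6%, 19.3% and 11.2%, lay between them in plates 1 and 2 but below Low cells in plate 3. As Folr4 chose the members, this difference is a description.

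**Figure D2:**
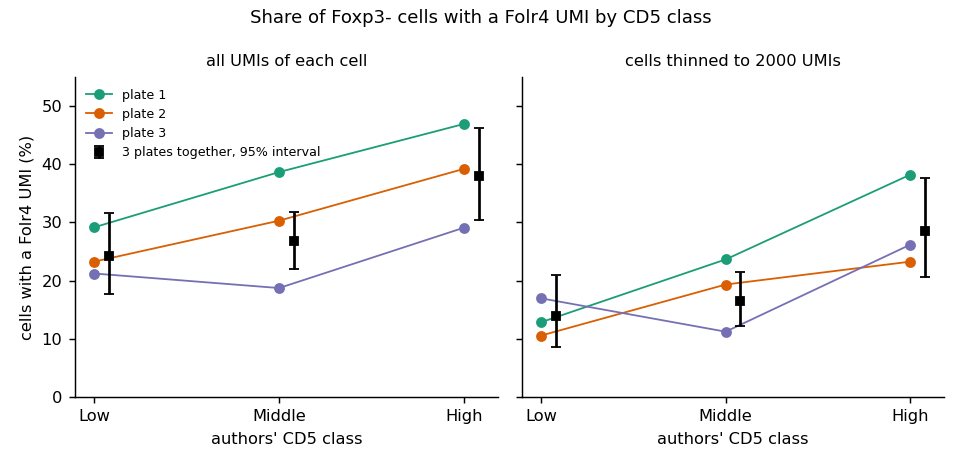
Share of Foxp3- cells with at least 1 Folr4 UMI in the CD5 classes Low, Middle and High, with each cell thinned to 2000 UMIs in the right panel. The left panel shows all 641 cells with all their UMIs. Coloured points are plates, and black squares the 3 plates together with exact 95% intervals. In each plate the thinned High share (38.2%, 23.3% and 26.2%) lies above the Low share (12.8%, 10.5% and 16.9%).

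Cells with several Folr4 UMIs were also a larger share of High than of Low cells in each plate. At least 3 UMIs were found in 2.55% of Low cells (4 of 157; 0.698 to 6.39), 7.90% of Middle cells (26 of 329; 5.23 to 11.4) and 12.9% of High cells (20 of 155; 8.06 to 19.2). By plate that share was 14.3%, 13.7% and 10.9% in High cells, against 2.08%, 4.65% and 1.52% in Low cells. It was 8.00%, 15.2% and 3.23% in Middle cells, which lay above High cells in plate 2. Seen from the members' side, median CD5 was 43455.5 units at 0 Folr4 UMIs, 47545 at 1, 37202 at 2, 58573 at 3 to 5 and 65171 at 6 or more. The order was not even, since the 29 cells with 2 UMIs lay lowest. The 30 cells with at least 6 UMIs had a median CD5 of 63115, 63013 and 66767 in plates 1, 2 and 3, against 41199, 45486 and 44256 in the cells with 0. These cells were also deeper, with a median of 6606 UMIs.

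To compare the groups at equal depth, each Folr4+ cell was paired with 1 Folr4- cell of the same plate with nearly the same total UMIs. This kept 177 of the 185 members (60, 58 and 59), with a median of 5165 UMIs against 5180 in the paired Folr4- cells. Median CD5 was 54282.5 units in Folr4+ and 41388.5 in Folr4- cells of plate 1. In plate 2 the medians were 55665.5 units in Folr4+ and 43125 in Folr4- cells, and in plate 3 they were 45073 and 47324. The log2 ratio of medians averaged 0.23 ± 0.26 (SD, n = 3 plates) and was above 0 in 2 of 3 plates (exact sign-flip permutation test, two-sided, p = 0.5, where the smallest p that 3 plates can give is 0.25). As a ratio of medians the difference was thus smaller than its spread between plates. As a difference of mean log2 CD5 it was 0.22 ± 0.15 (SD) and above 0 in 3 of 3 plates, at 0.32, 0.28 and 0.045 (exact p = 0.25). The ratio of medians was above 0 in 3 of 3 plates with members of at least 2 Folr4 UMIs (0.30 ± 0.16), with Foxp3 cells kept (0.34 ± 0.11) and with no matching (0.24 ± 0.19). It was above 0 in only 2 of 3 plates with pairs within 0.3 in log2 UMIs, pairs chosen one by one, and totals without Folr4. The same held after thinning and with the cell of highest Kcnq1ot1 share left out. In these settings plate 3 was at 0 or below. Low, Middle and High cells made up 20.9%, 46.9% and 32.2% of the matched Folr4+ cells and 27.7%, 49.2% and 23.2% of the matched Folr4- cells.

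**Figure D3:**
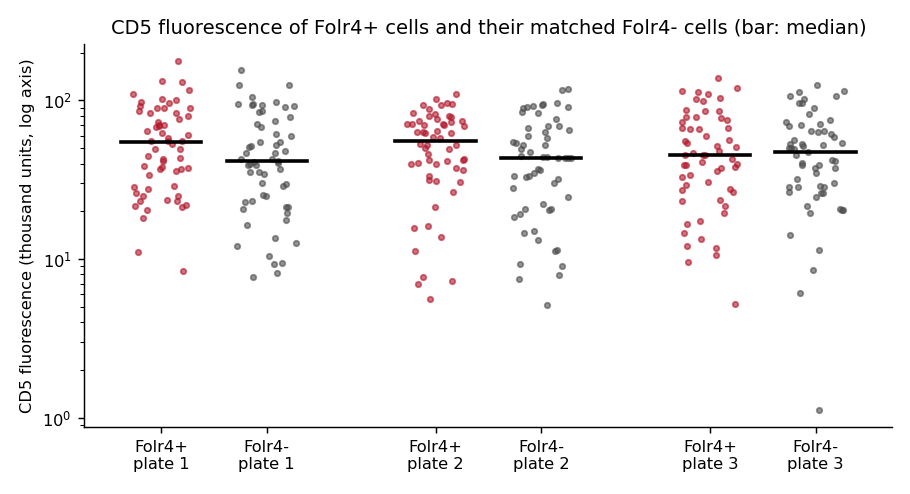
CD5 fluorescence at the sort (log axis) of depth-matched Folr4+ and Folr4- cells in each plate, 60, 58 and 59 cells a side. Points are cells and lines medians. The Folr4+ median lies above the Folr4- median in plates 1 and 2 and below it in plate 3, and the cells of both groups overlap over most of the range.

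With members restricted to at least 3 Folr4 UMIs, a choice made after seeing the data, 48 pairs remained, with 12, 24 and 12 in plates 1, 2 and 3. Their median CD5 was 71703.5 units in Folr4+ and 44698 in Folr4- cells of plate 1. In plate 2 the medians were 52970.5 and 50928 units, and in plate 3 they were 69739.5 and 28761. The mean log2 ratio was then 0.67 ± 0.61 (SD, n = 3 plates; exact permutation p = 0.25, the smallest possible). Plate 3 had the largest log2 ratio, 1.28, and its 12 Folr4- partners had a lower median CD5 than the 59 of the main pairing (28761 against 47324 units). With so few pairs the ratio thus depends on which Folr4- cells were drawn as well as on the members. Without plate 2, the mean log2 ratio over all matched members was 0.16, with 1 of 2 plates above 0. When the CD5 of the next well number was used in plate 2, its medians were 64371 units over 51 Folr4+ cells and 40638 units over 49 Folr4- cells, a log2 ratio of 0.66 in place of 0.37. The mean over the 3 plates was then 0.33 ± 0.37 (SD).

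Measures of RNA quality differed between matched Folr4+ and Folr4- cells by about the spread of plates or less. Median genes detected were 1303, 1620 and 1550 in Folr4+ cells of plates 1 to 3, against 1396.5, 1704 and 1544 in Folr4- cells (mean log2 ratio -0.06 ± 0.055, SD, n = 3 plates; exact p = 0.5). Mitochondrial transcripts took a median of 15.8%, 12.3% and 15.5% of UMIs in Folr4+ cells and 15.9%, 13.3% and 14.3% in Folr4- cells (exact p = 1). UMIs per spike-in UMI, a measure of RNA content, were 4.06, 6.47 and 3.75 in Folr4+ cells and 4.73, 6.38 and 4.64 in Folr4- cells (mean log2 ratio -0.17 ± 0.17; n = 3 plates, exact p = 0.5). With 3 plates these tests cannot pass at 0.05, and the p-values do not show that the groups were alike.

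Summed over cells, no gene differed between Folr4+ and matched Folr4- cells past the threshold. Of 4299 genes tested with edgeR's quasi-likelihood test, 0 (0%) had a Benjamini-Hochberg adjusted p under 0.05, and DESeq2 called 0 as well. An unadjusted p under 0.05 was reached by 200 genes (4.65%) in edgeR and by 39 in DESeq2. Of those 200, 104 (2.42% of genes tested) were higher in Folr4+ cells and 96 (2.23%) lower. In 341 genes (7.93%) the 3 Folr4+ sums did not overlap the 3 Folr4- sums. The same sign in all 3 plates was found in 1149 genes (26.7%), so that trait alone does not set a gene apart. The 678 genes averaging at least 200 counts per 1000000 (CPM) give the scale of the estimates: all had an estimated log2 fold change within 1 in either direction, and the central 95% lay between -0.37 and 0.44. The standard error (SE) had a median of 0.18 in these genes and 0.37 in all genes tested. Other settings called few genes: 1 (0.0191%) with no matching, 5 (0.114%) with pairs chosen one by one, 4 (0.2%) with members of at least 2 Folr4 UMIs, 1 (0.0244%) with pairs inside a CD5 class, 6 (0.365%) after thinning, 10 (0.0778%) with no filter on low counts and 8 (0.164%) without plate 1. Rn45s was called in 6 of these 7 settings, Kcnq1ot1 and Gm17821, a transcript that varies with it, in 5 each, and A630089N07Rik in 4. A130077B15Rik and Gm14085 were called in 3 each, Gm14085 as lower in Folr4+ cells. Fnbp4 and Reep3 were called in 1 each, with no filter.

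Cd5 and its relative Cd6 both had positive estimates that did not pass. Cd5 had 371, 266 and 188 CPM in Folr4+ cells of plates 1 to 3, against 305, 222 and 170 CPM in Folr4- cells. Each plate's Folr4+ sum lay above its Folr4- sum, but the groups overlapped (log2 fold change 0.23, SE 0.19, adjusted p = 0.989). Cd5 was found in 90 Folr4+ cells (50.8%) and in 68 Folr4- cells (38.4%) of 177 each. Cd6, an inhibitory receptor that binds CD166 on other cells, had 307, 278 and 184 CPM in Folr4+ and 141, 201 and 131 CPM in Folr4- cells. Its log2 fold change was 0.68 (SE 0.23, unadjusted p = 0.00897, adjusted p = 0.965), the groups overlapped, and it was found in 84 Folr4+ and 61 Folr4- cells.

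The 10 genes of smallest p that were higher in Folr4+ cells in all 3 plates mixed abundant and scarce transcripts, and none passed. Fnbp4, which encodes a protein that binds formins, had 549, 408 and 512 CPM in Folr4+ cells, against 305, 192 and 366 CPM in Folr4- cells. Its groups did not overlap (log2 fold change 0.79, SE 0.17, adjusted p = 0.844), and it was found in 94 Folr4+ and 77 Folr4- cells. Reep3, of a family of endoplasmic reticulum proteins, had 80.7, 73.8 and 73.7 CPM in Folr4+ cells and 11.7, 15 and 21.3 CPM in Folr4- cells. That difference (log2 2.22, SE 0.49, adjusted p = 0.844) rested on 65 UMIs in 27 Folr4+ cells and 14 UMIs in 12 Folr4- cells. Socs1, the inhibitor of cytokine signalling through JAK kinases, had 68.6, 47.3 and 114 CPM in Folr4+ cells and 11.7, 30.1 and 17.7 CPM in Folr4- cells. Its UMIs lay in few cells, 19 of the Folr4+ and 13 of the Folr4- cells (log2 1.84, SE 0.52, adjusted p = 0.864). Nudcd3 (log2 2.03) was found in 30 Folr4+ and 11 Folr4- cells, and Kctd13 (1.82) in 28 and 12. The ribosomal RNA precursor Rn45s had a log2 of 0.33, while the median share of Rn45s per cell gave -0.05 ± 0.31 (mean log2 ratio and SD over 3 plates), above 0 in 2 of 3 plates and at -0.40 in plate 2. A130077B15Rik had 0.71, Kcnq1ot1 0.53 and A630089N07Rik 0.51.

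Among the 10 genes of smallest p that were lower in Folr4+ cells in every plate, Foxp1 was the most abundant. Foxp1, a transcription factor that holds naive T cells in quiescence, had 343, 422 and 531 CPM in Folr4+ cells, against 658, 673 and 575 CPM in Folr4- cells. The groups did not overlap (log2 -0.57, SE 0.16, adjusted p = 0.864), and the gene was found in 128 Folr4+ and 127 Folr4- cells. With members of at least 3 Folr4 UMIs its log2 was 0.05. Gm14085 had 84.7, 44.3 and 59.0 CPM in Folr4+ and 137, 285 and 114 CPM in Folr4- cells (log2 -1.48, SE 0.37), with UMIs in 25 and 48 cells. Lax1, an adaptor that dampens TCR signalling, had 20.2, 35.4 and 162 CPM in Folr4+ cells and 121, 78.1 and 209 CPM in Folr4- cells. The groups overlapped (log2 -1.11, SE 0.38, adjusted p = 0.965). The others were Otud1 (-2.27), Fbxo8 (-1.86), Casp8ap2 (-1.77), Abhd17b (-1.57), Ubl4 (-1.48), Gse1 (-1.45) and Rnasek (-1.20). Of these, Rnasek was found in 42 Folr4+ and 61 Folr4- cells and the rest in 7 to 19 Folr4+ cells.

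**Figure D4:**
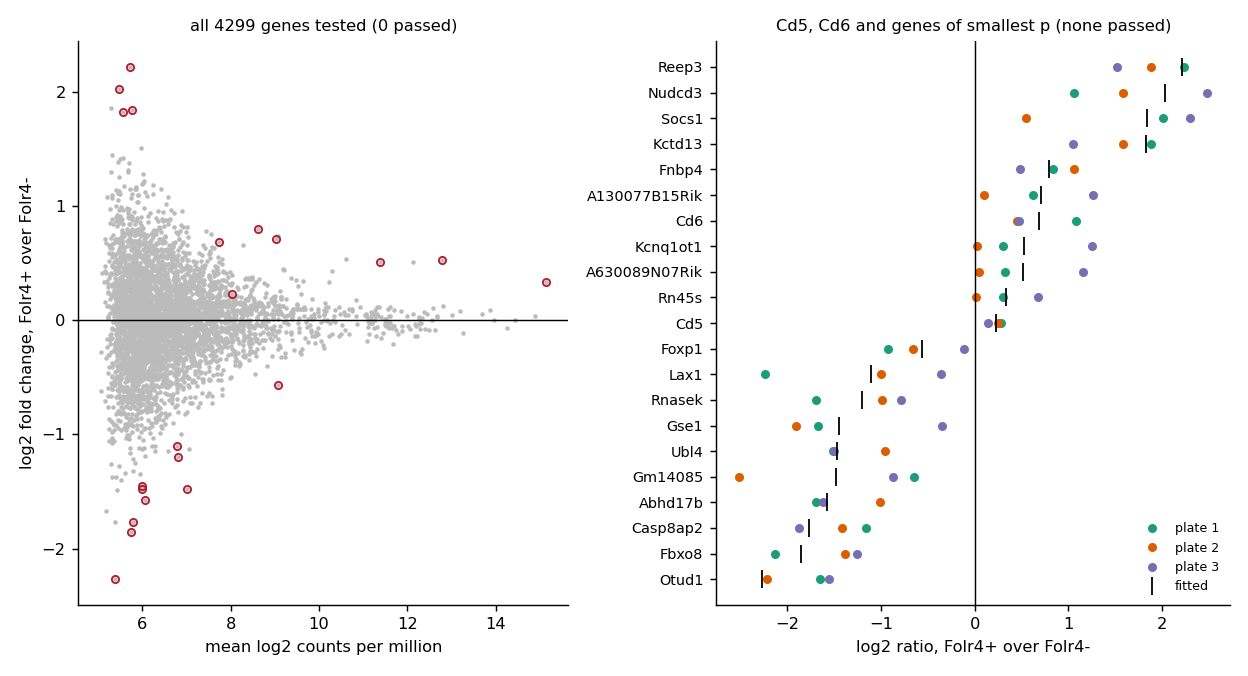
Left, log2 fold change (Folr4+ over matched Folr4- cells) against mean log2 CPM for the 4299 genes tested, with the named genes circled. Right, the same fold change for Cd5, Cd6 and the genes of smallest p in each direction that are named here, with coloured points for the 3 plates and a black mark for the fitted value; none passed an adjusted p of 0.05, and Cd6, Fnbp4 and Reep3 lie above 0 and Foxp1 below 0 in every plate.

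Markers of regulatory T cells were scarce in members, and most were found in a like number of Folr4- cells. The gate kept only CD25- cells, and cells with Foxp3 were left out of both groups. Scarcity of these markers was thus in part fixed in advance and is not a finding about the members. Of 20 listed genes, 19 were in the table and 0 had enough counts to be tested. Any of them was found in 80 Folr4+ cells (45.2%) and 74 Folr4- cells (41.8%) of 177 each. Their summed level, per 1000000 UMIs of all genes, was 243, 150 and 215 CPM in Folr4+ cells of plates 1 to 3, against 179, 108 and 194 CPM in Folr4- cells. The groups overlap, and the Folr4+ sum was the larger in each plate, though genes of the list differed in direction. By gene, Il2ra (CD25) was in 2 Folr4+ and 1 Folr4- cells, Ctla4 in 3 and 1, and Ikzf2 (Helios) in 9 and 7. Tnfrsf18 (GITR) was in 16 Folr4+ and 24 Folr4- cells, Tnfrsf1b (TNF receptor 2) in 19 and 13, Tnfrsf4 (OX40) in 8 and 10, and the inhibitory receptor Tigit in 8 and 3. Nt5e, which encodes CD73, the partner marker of anergic cells, was in 11 Folr4+ and 12 Folr4- cells, with 38 UMIs against 19. Of the listed genes, Nt5e and Ikzf2 (23 UMIs against 9) had the largest excess of UMIs in Folr4+ cells. Tnfrsf18 went the other way, with 19 UMIs against 34.

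**Figure D5:**
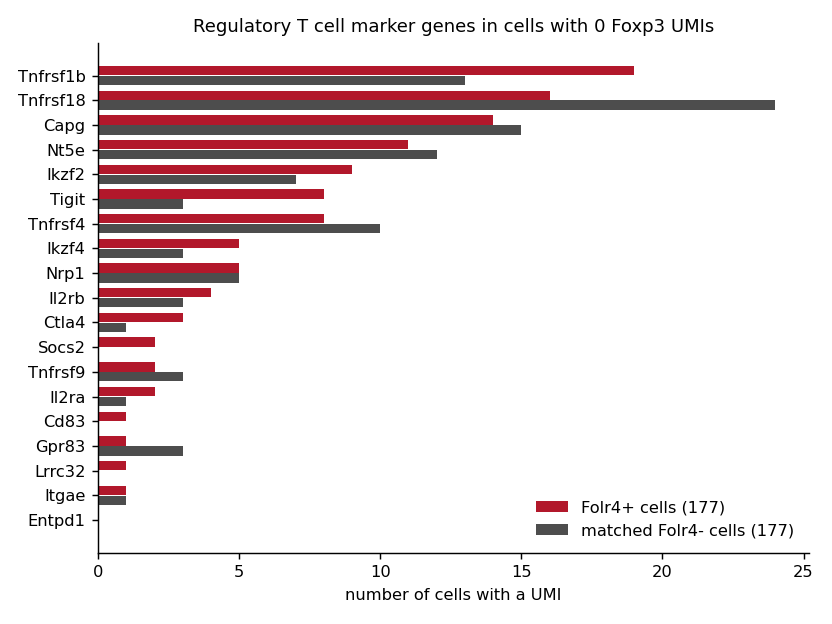
Number of depth-matched cells with a UMI of each regulatory T cell marker, Folr4+ and Folr4- cells, 177 a side. All came from the CD25- gate and had no Foxp3 UMI. No marker was found in more than 19 Folr4+ cells (Tnfrsf1b), and Tnfrsf18 was in fewer Folr4+ (16) than Folr4- cells (24).

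Foxp3 itself was found in 19 of all 204 cells with Folr4 (9.31%; 5.70 to 14.2) and in 37 of 493 cells without it (7.51%; 5.34 to 10.2). In plate 2 these were 4 of 64 cells with Folr4 (6.25%) and 4 of 137 without it (2.92%), and in plate 3 they were 15 of 74 (20.3%) and 33 of 250 (13.2%). Plate 1 had 0 of 66 and 0 of 106, so the share was the higher in cells with Folr4 in both plates that held Foxp3. These shares were not matched on depth, and cells with Folr4 were deeper. The 19 cells with both had 1 to 13 Folr4 UMIs with a median of 2, and 7 had at least 3. By plate, cells with Foxp3 numbered 0, 8 and 48 in plates 1, 2 and 3. Plate 1 held none, and its share of Folr4+ cells, 38.4% of cells without Foxp3, was the highest of the plates, against 31.1% in plate 2 and 21.4% in plate 3.

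Genes of anergy and long exposure to self-antigen gave estimates on both sides of 0. Of 25 listed, 8 could be tested, 4 were positive and 4 negative, 0 passed, and the median log2 was -0.07, against 0.01 over all genes tested. Tox, a transcription factor of exhausted and developing T cells, had 72.6, 112 and 59.0 CPM in Folr4+ and 19.6, 66.1 and 60.3 CPM in Folr4- cells (log2 0.76, SE 0.41, adjusted p = 0.965). Plates 1 and 2 had more Tox in Folr4+ cells and plate 3 did not. Dgka, a diacylglycerol kinase that limits TCR signals, had a log2 of -0.15 with an SE of 0.079, and its relative Dgkz had 0.01. The ubiquitin ligases Cblb and Itch had 0.33 and -0.52 (Itch -0.03 without plate 2), the inhibitory receptor Btla -0.31, Nr4a1, an early gene of TCR signalling, -0.50, and the transcription factor Ikzf1 0.08. Pdcd1 (PD-1) was in 2 Folr4+ and 2 Folr4- cells, Lag3 in 3 and 4, and Egr2 in 3 and 2, too few to test.

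Genes of TCR signalling showed no shared direction. Of 23 early genes that TCR signals induce, 17 were tested, 8 positive and 9 negative, 0 passed, and the median was -0.02. Tnfaip3, an inhibitor of NF-kB, had 0.58 and Junb -0.32. Of 29 genes of the TCR complex and its nearest kinases and adaptors, 25 were tested, 16 positive and 9 negative, 0 passed, and the median was 0.03, with the adaptors Lat at -0.21 and Grb2 at 0.44. Of 32 negative regulators of TCR signalling, 26 were tested, 15 positive and 11 negative, 0 passed, and the median of 0.04 and the mean of -0.05 differ in sign. Of these 26, an unadjusted p under 0.05 was reached by 3 positive genes, among them Socs1 and Cd6, and by 4 negative genes, against 2.42% and 2.23% of all genes tested. The negative genes were Lax1, the adaptor Sla2 at -1.17, Ptpn2, a phosphatase that acts on JAK-STAT signalling, at -1.12, and Socs3, a relative of Socs1, at -0.93. Ptpn2 rested on 31 UMIs in 19 Folr4+ cells and 70 UMIs in 32 Folr4- cells. Over the other settings Sla2 ran from -1.46 to -0.39, Ptpn2 from -1.21 to -0.80 and Socs3 from -1.24 to -0.48.

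Genes of the naive state and of folate metabolism were likewise spread around 0. Of 32 genes of naive state and homing, 29 were tested, 19 positive and 10 negative, 0 passed, and the median was 0.03. Igfbp4, a marker of naive CD4 T cells, had 888, 922 and 852 CPM in Folr4+ and 740, 646 and 724 CPM in Folr4- cells (log2 0.34, adjusted p = 0.965), without overlap. Bcl11b, a factor of T cell identity, had 0.37 and Btg2, a brake on proliferation, -0.52. Of 26 genes of folate receptors and one-carbon metabolism, only 6 were tested, 3 in each direction, and 0 passed. Psat1, of serine synthesis, had a log2 of 1.12, with 1.80, 0.21 and 1.27 in plates 1 to 3. That estimate rested on 41 UMIs in 13 Folr4+ cells, 14 of them in 1 cell, and 24 UMIs in 11 Folr4- cells. Shmt2, a mitochondrial serine hydroxymethyltransferase, had -0.57. The list's median was -0.01 and its mean 0.07.

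In 4 Ly6 surface genes tested of 8 listed, 3 were negative, 0 passed and the median was -0.22. Ly6c1, whose protein Ly6C is carried by naive CD4 T cells with weaker self-signals, had 101, 76.8 and 92.2 CPM in Folr4+ cells, against 168, 138 and 106 CPM in Folr4- cells. The groups did not overlap, the gene was in 42 Folr4+ and 60 Folr4- cells, and the difference did not pass (log2 -0.61, SE 0.30, adjusted p = 0.965). Ly6a had -0.42. Memory and effector genes, 8 tested of 27, were positive in 6 with a median of 0.17, T follicular helper genes, 9 tested of 19, were negative in 7 with a median of -0.14, and recent thymic emigrant genes, 4 tested of 13, had a median of 0.00. None passed in these 3 lists. Of the negative follicular helper genes, Lef1 was found in 153 Folr4+ and 163 Folr4- cells and Tcf7 in 110 and 121. The list thus does not single out follicular helper cells. Xist, made only in female cells, had 84.7, 183 and 125 CPM in Folr4+ and 192, 219 and 206 CPM in Folr4- cells (log2 -0.67, adjusted p = 0.965). These sums did not overlap. Xist was in 56 Folr4+ and 81 Folr4- cells, and the part of the sexes, which were pooled, in any other result was not tested.

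Of 5 marker lists of other cell types, the sum for B cells was higher and that for CD8 T cells lower in Folr4+ cells in every plate, on few UMIs. B cell genes, 12 of 18 in the table, summed to 11.1, 37.6 and 185 CPM in Folr4+ cells of plates 1 to 3, against 3.66, 24.4 and 110 CPM in Folr4- cells. CD8 T cell genes, 5 of 6, summed to 14.7, 13.4 and 23.5 CPM in Folr4+ and 18.3, 19.0 and 36.8 CPM in Folr4- cells. In both lists the range over plates overlapped between the groups. Any B cell gene was found in 39 Folr4+ and 31 Folr4- cells of 177 each, and any CD8 T cell gene in 14 and 16. Single genes went both ways: Cd79a was in 4 Folr4+ and 0 Folr4- cells but Ms4a1 in 1 and 2. Likewise Cd8b1 was in 6 and 10 but Cd8a in 4 and 2. NK and myeloid genes differed in direction between plates: NK genes summed to 13.4 to 53.8 and 10.03 to 86.7 CPM, and myeloid genes to 232 to 276 and 194 to 306 CPM. Erythroid genes summed to 0 to 7.37 CPM in Folr4+ and 0 to 18.3 CPM in Folr4- cells, lower in Folr4+ cells of plates 1 and 3 and at 0 in both groups of plate 2. The part of other cell types in the gene results was not tested.

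The single list with every tested member positive was that of Kcnq1ot1 and transcripts that vary with it, and much of its difference came from 1 cell. Kcnq1ot1 is a long non-coding RNA of an imprinted domain. All 7 listed transcripts had an estimate above 0 and an unadjusted p under 0.05, the median log2 was 0.51, and 0 passed. The list was drawn from these cells in earlier work, so its shared direction is not independent evidence. Kcnq1ot1 had 7794, 4398 and 13858 CPM in Folr4+ cells and 6309, 4336 and 5831 CPM in Folr4- cells. Seen by cell, a single High cell of plate 3 with 2 Folr4 UMIs held 4240 UMIs of the 7 transcripts, 44.3% of its total. Without that cell the log2 fold changes of Kcnq1ot1, A130077B15Rik and A630089N07Rik were 0.22, 0.31 and 0.27, against 0.53, 0.71 and 0.51 with it. The median share of Kcnq1ot1 per cell, on which 1 cell has little weight, was 0.585%, 0.347% and 0.430% in Folr4+ cells of plates 1 to 3, against 0.393%, 0.302% and 0.377% in Folr4- cells (mean log2 ratio 0.32 ± 0.22, SD, n = 3 plates; exact p = 0.25). With no matching the mean log2 ratio was -0.07, with plate 3 at -0.27, and with at least 2 Folr4 UMIs plate 2 was at -0.07.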

How the data were processed

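The deposited gene table holds expected counts: transcripts estimated per gene and cell by the authors from 6-base UMIs, 14355 genes in 697 cells of 3 plates, of which 8.56% of nonzero values were not whole. Reads were mapped with BWA to mm10, per the submitters' processing notes, and the BWA version is not given. CD5 is a deposited fluorescence signal, 1 value for each sorted cell with no stated scaling between plates, and the authors' CD5 classes were used as deposited. Spike-ins, 19.6% of all counts, entered only the measure of RNA content. Well numbers recur between plates (285 of 372 in at least 2), as each plate has its own library. Cells ranged from 716.28 to 13486 UMIs, and no doublet caller was run on cells sorted 1 to a well.

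Folr4+ and Folr4- cells were paired 1 to 1 within plate on log2 total UMIs, within 0.1, by least total distance. The counts were summed by plate and group and rounded, and Folr4 and Foxp3 left out. These 6 sums entered edgeR 4.0.16 (its quasi-likelihood test with filterByExpr, TMM scaling, plate as replicate block, two-sided, Benjamini-Hochberg at 0.05) in R 4.3.3. A gene had 2 residual and 13.2 prior degrees of freedom. CPM of a gene are TMM-scaled counts per 1000000 counts of the tested genes, and CPM of a list are UMIs per 1000000 UMIs of all genes. The plate is a block because both groups of a plate share its library, and deviations from group means correlated between them at 0.45, 0.68 and 0.53 over 430 genes. The fit was tested on simulated data. Cell measures were compared by an exact sign-flip permutation of plate log2 ratios. Intervals are exact (Clopper-Pearson, 95%), and they cover counting error only.

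The members, gene lists and tests were chosen with earlier results of these data known. The genes named are Cd5, Cd6, up to 10 of smallest p per direction with 1 sign in all 3 plates when fewer pass, up to 4 of smallest p per list, and the tested members of the regulatory T cell and anergy lists. Some genes that the rules name are not reported here. Alternatives were DESeq2 1.42.0 (size factors or Wald test), other filters, no replicate block, other pairings, stricter Folr4 minimums, thinning, Foxp3 cells kept, the cell of highest Kcnq1ot1 share left out, other CD5 values in plate 2 and each plate left out. Python 3.11.15 with numpy 2.4.6, pandas 2.3.3, scipy 1.17.1 and matplotlib 3.10.9 was used.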

Additional observations from a re-analysis of the deposited data

How the results depend on the processing

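No gene passed in Folr4+ against matched Folr4- cells (0 of 4299), and the count stayed at 0 with the wider caliper of 0.3, totals without Folr4, Foxp3 cells kept, the cell of highest Kcnq1ot1 share left out, at least 3 Folr4 UMIs, DESeq2 size factors, the DESeq2 Wald test, a mean of at least 50 counts and no replicate block. It was 1 with no matching, 5 with pairs one by one, 4 with at least 2 Folr4 UMIs, 1 within CD5 classes, 6 after thinning, 10 with no low-count filter and 0 to 8 when a plate was left out, with 8 without plate 1. The cause was not tested. Without the replicate block, 137 genes had an unadjusted p under 0.05, against 200 with it. The log2 ratio of genes detected per cell was 0.29 with no matching and 0.0072 with at least 3 Folr4 UMIs, against -0.06. That of the mitochondrial share was -0.0098 with no matching, -0.0036 with pairs one by one, -0.022 with Foxp3 cells kept and -0.054 to 0.057 when a plate was left out, against 0.0033. That of the ribosomal protein share was 0.0015 with pairs one by one, against -0.04, and that of UMIs per spike-in UMI 0.29 with no matching, against -0.17. The mean CD5 log2 ratio over plates stayed above 0, from 0.08 within CD5 classes to 0.67 with at least 3 Folr4 UMIs, and from 0.15 to 0.38 when a plate was left out. Pairs within CD5 classes are matched on CD5 itself, which draws that ratio towards 0 by design, and plate 3 was then at -0.09. High minus Low in the Folr4 share stayed above 0, from 10.3 to 19.1 percentage points. Signs of uncalled genes turned for Foxp1 (0.054, at least 3 Folr4 UMIs), Nr4a1 (0.053), Btla (0.17) and Ikzf1 (-0.050) after thinning, Cblb (-0.0073) and Ly6a (0.085) within CD5 classes, and Dgkz (-0.018 with pairs one by one, -0.11 after thinning, -0.028 to 0.059 when a plate was left out). At a median of 5165 UMIs most marker transcripts were found in few cells, and 3 plates cannot give an exact p under 0.25.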

Other observations

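Further gene groups were tested in the depth-matched cells, and in none did a gene pass edgeR's quasi-likelihood test with Benjamini-Hochberg adjustment. Of 46 type I interferon response genes, 27 were tested, 15 positive and 12 negative, and the median log2 fold change of Folr4+ over Folr4- cells was 0.12, against 0.01 over all genes tested. Trim30a had 0.64. The antiviral gene Ifit1 had 0.94, but 0.57 without plate 3 and 1.53 without plate 1, and its value in plate 1 was -0.10. Zbp1, a sensor of viral nucleic acid, had -0.94, and -0.30 without plate 1 or -1.50 without plate 2. Of 27 heat shock and stress genes, 18 were tested, 7 positive and 11 negative, with a median of -0.06. The chaperone gene Hspa1b had -1.13, with -1.28, 0.11 and -1.41 in plates 1 to 3. The co-chaperone Dnajb1 had 0.71, but 0.25 without plate 2 and 1.13 without plate 3. Of 20 glycolysis genes, 10 were tested, 6 positive and 4 negative, and their median of 0.04 and mean of -0.03 differ in sign. Hk1, the hexokinase of the first step, had -1.10, and -0.66 without plate 2. Of 23 cycling genes, 8 were tested with a median of 0.10, and of 19 costimulatory and CD2-family genes, 12 with a median of -0.05. Genes of chromosome M, 14 tested of 36, were positive in 11 with a median of 0.05. Ribosomal protein genes, 73 tested of 83, were positive in 33 and negative in 40 with a median of -0.02. In 11 tested genes of CD4 T cell identity, of 15 listed, 6 were positive and 5 negative.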
